A study of Mus musculus with 11 samples.

Results

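Small leucine-rich proteoglycans are secreted matrix proteins with a core of leucine-rich repeats, and 9 genes of the family were followed in cultured mouse mesenchymal stem cells (MSCs, stromal cells that can form osteoblasts and adipocytes). The genes were Dcn, Bgn, Lum, Fmod, Ogn, Aspn, Prelp, Omd and Podn. They were chosen by name, with earlier results of these data known, and all 9 were found among the 28222 genes of the count table. Polyadenylated RNA was sequenced in 11 libraries from mice of 3 to 5 months (young, n = 6) and of 18 to 22 months (old, n = 5). Every culture was kept at 2% oxygen in αMEM with serum, penicillin and streptomycin, and no genotype or treatment was named. By label, 3 batches were made: batch A of 4 young, batch B of 2 young and 2 old, and batch C of 3 old libraries. Old and young MSCs can thus be compared free of batch in batch B alone. It is not stated whether the libraries of a group came from separate mice or cultures, so that p-values measure the spread between these libraries only. In bulk RNA, fewer cells of a type and less RNA per cell cannot be told apart.

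In the matrix these proteoglycans sit on collagen fibrils, where they govern how fibrils assemble and how thick they grow, and several of them also bind growth factors of the TGF-β family. Decorin, biglycan and asporin form a first class, of which decorin and biglycan carry chondroitin or dermatan sulfate chains while asporin carries none. Lumican, fibromodulin, PRELP and osteomodulin form a second class, in which keratan sulfate is the usual chain. Osteoglycin and podocan belong to further classes. In skeletal tissue the family is best known from bone, cartilage and tendon, and osteomodulin was named after bone.

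The libraries held 11969336 to 20315934 counts, and none of the 9 genes fell below 345 counts (Omd in batch A young replicate 2). The table was therefore deep enough for every member, and all 9 passed the filter on low counts in each comparison. The stromal markers Vim and Prrx1 were high in every library, at 3119.9 to 6358 and 290.1 to 529 CPM (a library's counts as parts of its total, after scaling with TMM factors). Pdgfra was at 109 to 287 CPM. The lowest of the listed stromal markers in every library was Nt5e, at 8.41 to 30.5 CPM. Of 6 endothelial markers, Pecam1, Cdh5, Emcn and Tie1 were at no more than 0.586 CPM and at 0 in some libraries, Flt1 was at no more than 1.43 CPM, and Tek was at 1.30 to 8.50 CPM. Tek was higher in batch B young (log2 fold change 1.23, edgeR adjusted p 0.0151) and in batch C old (2.16, edgeR adjusted p 2.81e-05) than in batch A young libraries. The summed CPM of 12 macrophage and leukocyte markers was 658 to 1420 in batch A young, 374 to 770.0 in batch B young, 759.9 to 1094 in batch B old and 128 to 151 in batch C old libraries, and Ptprc, which encodes CD45, was detected in every library.

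Summed over the 9 genes, the proteoglycan mRNA was highest in batch A young and lowest in batch B old libraries. The sum was 17607, 19976, 18083 and 18441 CPM in the 4 batch A young libraries. In batch B it reached 14589.5 and 11664 CPM in the young libraries, against 7767 and 8292 CPM in the old ones. In batch C old libraries it was 9923, 11099.8 and 10077 CPM. The groups did not overlap in this TMM-scaled sum. As a share of all counts the 9 genes took between 0.783% and 1.80%, and on that scale batch B young (1.37% and 1.16%) and batch C old libraries (1.16%, 1.29% and 1.17%) overlapped.

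The 9 genes differed widely in level. Levels of different genes are compared as CPM per kb of the longest annotated transcript. Bgn (biglycan) and Fmod (fibromodulin) led in every library, with 2509 ± 234 and 2435 ± 146 CPM per kb in batch A young libraries (SD, n = 4). They ranked 13 to 41 and 14 to 76 among 28143 genes with a known length. Together they made up 64.6% to 80.9% of the summed CPM per kb. Prelp, whose product has an arginine- and proline-rich end that binds heparan sulfate, came next in batch A at 752 ± 79.4 CPM per kb (SD, n = 4). Prelp was below Ogn in every library of batch C, in batch B young libraries and in batch B old replicate 2. Omd was the lowest of the 9 genes in 7 of the 11 libraries, at 13.2 ± 3.01 CPM per kb in batch A young (SD, n = 4), and ranked between 503 and 5273. In batch C old libraries Omd reached 71.3 ± 10.4 CPM per kb (SD, n = 3) and was above Dcn (44.1 ± 10.0) and Podn (42.6 ± 1.59).

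**Figure D1:**
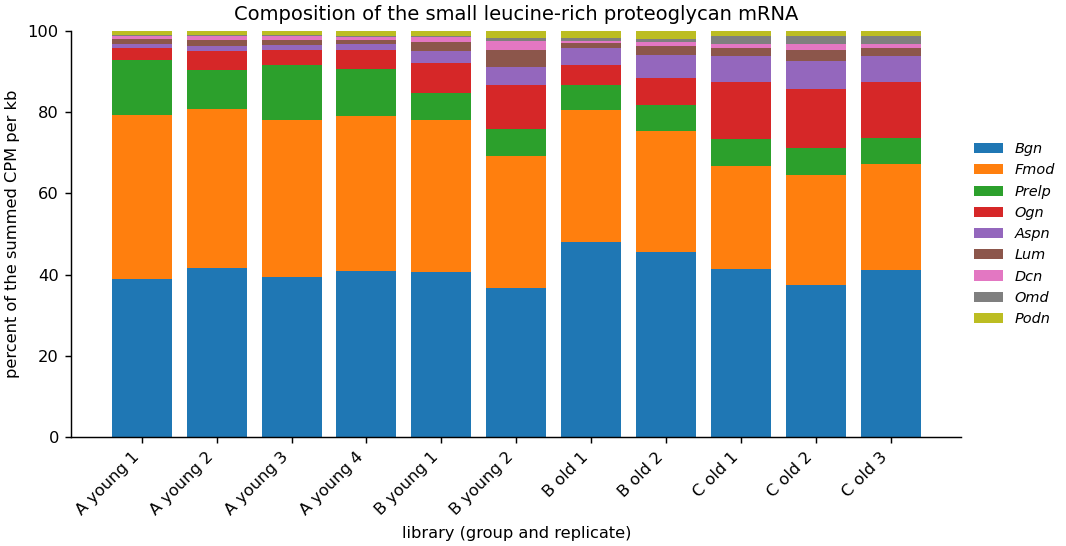
Each bar is a library, and each segment is the share of a gene, in percent, of the summed CPM per kb of the 9 genes. Bgn and Fmod fill most of every bar, Prelp falls from 9.62% to 13.7% in batch A young to 6.04% to 6.79% elsewhere, and Ogn takes 13.9% to 14.5% in batch C old libraries.

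Over all 11 libraries the range of Podn was narrowest and that of Omd widest. The highest library exceeded the lowest 1.70-fold for Podn, 2.17-fold for Bgn, 3.07-fold for Fmod, 4.16-fold for Ogn, 5.06-fold for Prelp, 5.27-fold for Aspn, 5.80-fold for Dcn, 5.96-fold for Lum and 8.63-fold for Omd. Of the 16132 genes tested for age within batch B, 94.8% had a smaller range than Omd and 22.5% a smaller range than Podn.

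The first question was whether old and young MSCs of the same batch differed. In batch B, 5 of 9 genes were lower in old MSCs and 0 were higher. Dcn was lower 3.00-fold, Lum 3.10-fold, Ogn 2.46-fold, Fmod 1.82-fold and Prelp 1.74-fold. Of all 16132 genes tested, 2.23% passed the threshold of an adjusted p-value under 0.05, with 0.694% higher and 1.54% lower in old MSCs. The median log2 fold change of the 9 genes was −0.80, against 0.0044 over all genes tested. Because the 9 genes were chosen with earlier results known, these shares and medians are a description and not a test of the set. Old and young libraries of batch B did not overlap for 7 of the 9 genes, which was the case for 39.8% of all genes tested.

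Dcn encodes decorin, which binds collagen I and TGF-β. In batch B its level was 249 and 431 CPM in the young libraries, against 74.2 and 151 CPM in the old ones. Both old libraries were below both young libraries, and replicates of an age differed from each other by a large margin. Dcn thus had a fitted log2 difference of −1.59 (SE 0.30, edgeR adjusted p 0.00941). Lum encodes lumican, known from the collagen fibrils of the cornea. Its level in batch B was 292 and 414 CPM in the young libraries, against 69.4 and 157 CPM in the old ones (log2 fold change −1.63, SE 0.30, edgeR adjusted p 0.00946). As for Dcn, batch B old replicate 1 was the lowest of all 11 libraries.

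Ogn encodes osteoglycin, also called mimecan. In batch B young libraries it reached 954 and 1112 CPM, against 350.4 and 484 CPM in the old ones (log2 fold change −1.30, SE 0.22, edgeR adjusted p 0.00571). The gap between the ages was larger than the difference between replicates of either age. Fmod, which encodes a collagen I binding protein prominent in tendon, was at 5873 and 4097 CPM in young and at 2743 and 2698 CPM in old libraries (log2 fold change −0.86, SE 0.16, edgeR adjusted p 0.00922). Prelp was at 1231 and 973 CPM in young and at 590.4 and 667 CPM in old libraries (log2 fold change −0.80, SE 0.15, edgeR adjusted p 0.00922). For both genes the young replicates spread further than the old ones.

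The other 4 genes did not pass the threshold, and the interval of each difference shows what these libraries leave possible. Bgn was at 5417 and 3922 CPM in young libraries of batch B, against 3466 and 3511 CPM in its old ones (log2 fold change −0.41, 95% interval −0.73 to −0.086, edgeR adjusted p 0.187). Podn, which encodes podocan, was at 212 and 234 CPM in young and at 163 and 203 CPM in old libraries (−0.28, interval −0.57 to 0.018). For both genes the ages did not overlap, although the adjusted p-value missed the threshold. Aspn, which encodes asporin, was at 327 and 413 CPM in young and at 267 and 377 CPM in old libraries (−0.19, interval −0.68 to 0.30). Omd, whose product osteomodulin is made by bone-forming cells, was at 34.5 and 66.2 CPM in young and at 44.1 and 44.6 CPM in old libraries (−0.17, interval −0.71 to 0.37). For Aspn and Omd the ages overlapped, and the young Omd libraries enclosed both old libraries.

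The calls depended on single libraries of batch B. Without batch B old replicate 1, 0 of 9 genes passed the threshold in edgeR's test, with 5 at an unadjusted p-value under 0.05, and 84 of all genes passed. The log2 fold changes were then −1.16 for Dcn (edgeR adjusted p 0.12), −1.16 for Lum (0.0986), −1.08 for Ogn (0.0934), −0.86 for Fmod (0.0824) and −0.70 for Prelp (0.134). Fmod was also lost without batch B old replicate 2 (edgeR adjusted p 0.0600), and Bgn was added without batch B young replicate 2 (−0.62, edgeR adjusted p 0.0107), in which case 2007 of all genes passed. When batch B was fitted alone, 3 of 9 genes passed, namely Dcn, Lum and Ogn, and 123 of all genes. The SD of log2 CPM between both old libraries was 0.72 for Dcn and 0.83 for Lum, against medians of 0.058 and 0.057 over 569 and 652 genes of like level, whereas for Fmod it was 0.017 (median 0.034 over 8 genes). Macrophage and leukocyte markers had a summed 374 CPM in batch B young replicate 2 and 759.9 to 1094 CPM in the other 3 libraries of that batch. For age, 0 of the 12 passed in edgeR's test (6 at an unadjusted p-value under 0.05, 0 with limma-trend and 1 with DESeq2), and 2 of 12 were higher without batch B young replicate 1. Of 11 stromal markers, Pdgfra (−0.86, edgeR adjusted p 0.0059) and Nt5e (−1.34, edgeR adjusted p 0.00932) were lower in old MSCs of batch B, and neither passed without batch B old replicate 1. Their summed level was 8327 and 7486 CPM in the young and 6545 and 6299 CPM in the old libraries. Of 7 osteoblast markers, Alpl (alkaline phosphatase) was higher (0.98, edgeR adjusted p 0.00287), and the sum went from 229 and 202 CPM in young to 362 and 390.0 CPM in old libraries. Of 5 chondrocyte markers, Col9a1 was lower (−2.74, edgeR adjusted p 0.0474), which was not called in 3 of 4 fits that left out a library of batch B. Col9a1 was at 2.74 and 1.36 CPM in young and at 0.269 and 0.334 CPM in old libraries of batch B, the latter close to the smallest detectable level. The part of all these markers in the age difference of the 9 genes was not tested.

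**Figure D2:**
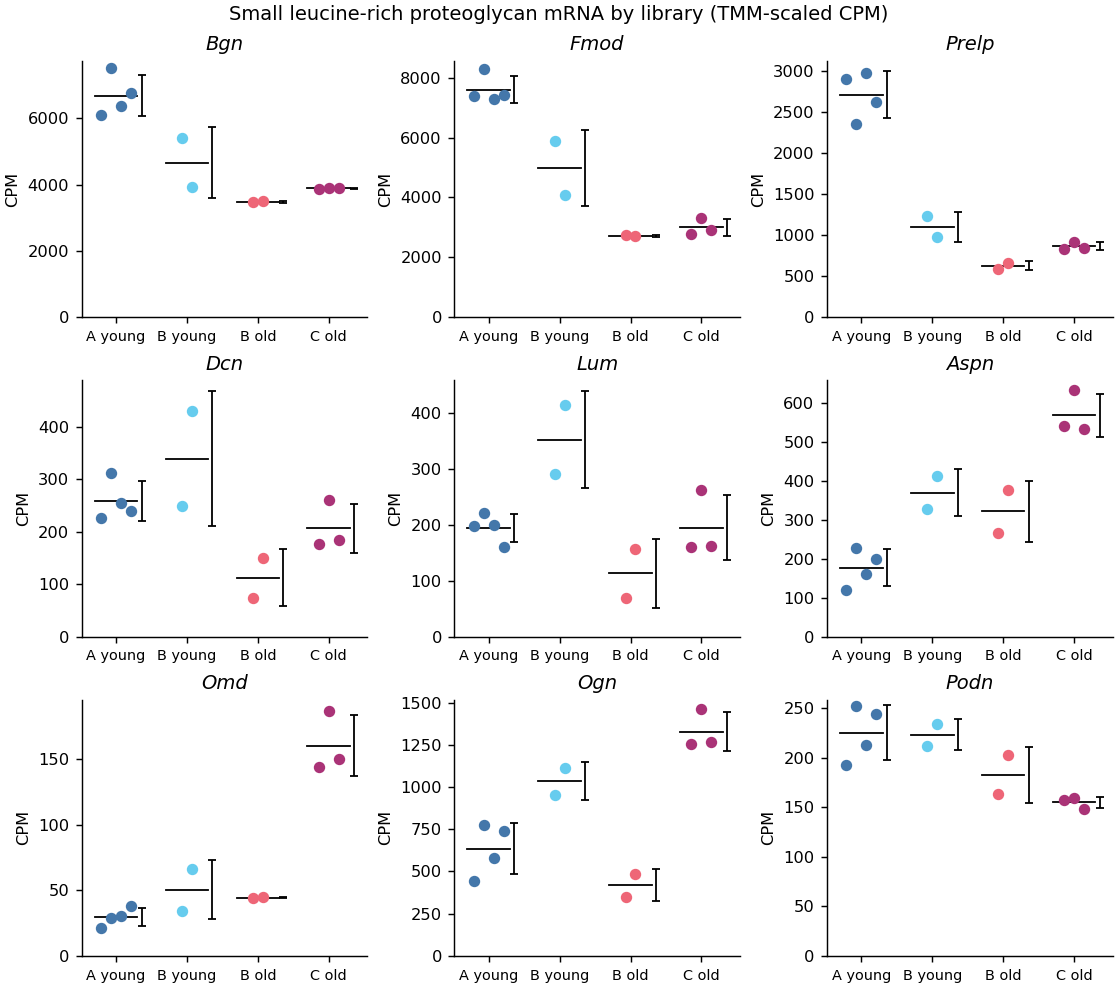
Each point is the CPM of a gene in a library, grouped by batch and age, with the group mean as a bar and the SD beside it (n = 4, 2, 2 and 3). In batch B all 9 means are lower in old libraries, and Omd and Ogn are highest in batch C old libraries.

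**Figure D3:**
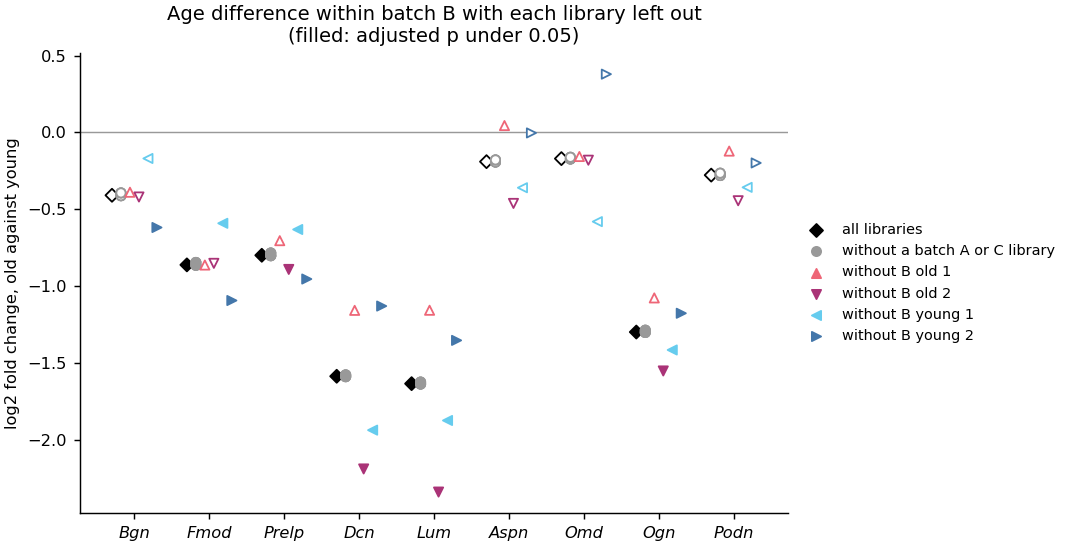
Each symbol is the log2 fold change of old against young MSCs within batch B, from the fit of all 11 libraries or with a library left out, and filled symbols have an edgeR adjusted p-value under 0.05. The open upward triangles show that no gene passed without batch B old replicate 1, while Omd moved above 0 without batch B young replicate 2.

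The same genes were then compared between batches at constant age. Among young MSCs, 4 of 9 genes were higher and 2 lower in batch B than in batch A. Of 14840 genes tested, 18.1% passed the threshold, with 9.39% higher and 8.71% lower in batch B. Prelp fell most and Aspn rose most. Prelp was at 2904, 2353, 2985 and 2629.8 CPM in batch A young libraries, well above both batch B young libraries (log2 fold change −1.29, SE 0.16, edgeR adjusted p 0.00111). Aspn was at 119.9, 229, 161 and 200.5 CPM in batch A young libraries, all below batch B young (log2 fold change 1.08, SE 0.21, edgeR adjusted p 0.00542).

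Lum, at 197, 221, 200.3 and 161 CPM in batch A young libraries, was higher in batch B young (log2 fold change 0.88, SE 0.16, edgeR adjusted p 0.00473). Ogn, at 446, 773, 579 and 741 CPM in batch A young, was higher by 0.72 (SE 0.19, edgeR adjusted p 0.0241). Omd, at 21.5, 29.2, 30.2 and 38.1 CPM in batch A young, was higher by 0.78 (SE 0.24, edgeR adjusted p 0.0408), although both groups overlapped. Fmod, at 7403, 8276, 7296 and 7414 CPM in batch A young, was lower in batch B young (−0.60, SE 0.17, edgeR adjusted p 0.0281). Dcn, at 227, 313, 256 and 240.1 CPM in batch A young, overlapped with batch B young (0.41, 95% interval −0.013 to 0.84). Bgn, at 6096, 7528, 6363 and 6773 CPM in batch A young, lay above both batch B young libraries but missed the threshold (−0.51, edgeR adjusted p 0.0523). Podn, at 193, 253, 212 and 244 CPM in batch A young, differed by 0.0012 (interval −0.30 to 0.31), a value whose sign turned with RLE factors (−0.0062).

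Of these calls only that of Prelp remained when batch B young replicate 2 was left out (−1.14, edgeR adjusted p 0.0148), and 511 of all genes then passed. Without batch A young replicate 3, 3 of 9 genes passed. A correction for transcript length and GC content with limma-trend left 2 of 9 genes, namely Lum and Prelp.

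Among old MSCs, 6 of 9 genes were higher and 1 was lower in batch C than in batch B. A comparable majority of all 15651 genes tested passed, 64.7%, with 32.1% higher and 32.6% lower in batch C, so that passing the threshold does not set a gene apart here. The size of the difference was largest for Omd and Ogn. Omd was at 144, 187 and 150.3 CPM in batch C old libraries, all more than 3 times the level of both batch B old libraries (log2 fold change 1.86, SE 0.11, edgeR adjusted p 4.33e-08). Ogn was at 1254, 1459 and 1267 CPM in batch C old libraries and lay above every other library (1.67, SE 0.13, edgeR adjusted p 3.18e-07). Aspn, at 541, 633 and 533 CPM in batch C old, was also above every other library (0.82, SE 0.13, edgeR adjusted p 0.000125).

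Dcn was at 176, 261 and 184 CPM in batch C old libraries and higher than in batch B old by 0.88 (SE 0.24, edgeR adjusted p 0.00623). Lum was at 161, 262 and 162 CPM and higher by 0.79 (SE 0.28, edgeR adjusted p 0.0258). The call of Lum was lost without batch B old replicate 1 (0.32, edgeR adjusted p 0.119) and without batch C old replicate 2 (0.53, edgeR adjusted p 0.103), and DESeq2 called neither Dcn nor Lum. Prelp, at 834, 923 and 839 CPM in batch C old, was higher by 0.46 (SE 0.080, edgeR adjusted p 0.000294). Podn, at 157, 159 and 148 CPM, was lower (−0.23, SE 0.085, edgeR adjusted p 0.0298), and this call was lost in 4 of 5 fits that left out a library. Bgn, at 3874, 3907 and 3891 CPM, differed by 0.16 (95% interval 0.011 to 0.31) and Fmod, at 2781, 3309 and 2902 CPM, by 0.14 (interval −0.042 to 0.33). Scaling by total counts moved the median of all genes by 0.19 towards batch C, and under it Bgn and Fmod were called higher and Podn was not called.

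The old against young difference was also taken between batch C old and batch A young libraries, where age and batch cannot be told apart. Here 3 of 9 genes were higher and 4 were lower in batch C old. Of 15021 genes tested, 63.8% passed, with 32.0% higher and 31.9% lower. Omd was higher (log2 fold change 2.51, SE 0.15, edgeR adjusted p 5.93e-08), Aspn by 1.75 (SE 0.17, edgeR adjusted p 1.94e-06) and Ogn by 1.13 (SE 0.15, edgeR adjusted p 3.57e-05). Prelp was lower, at −1.58 (SE 0.096, edgeR adjusted p 5.93e-08), as were Fmod at −1.27 (SE 0.092, edgeR adjusted p 2.07e-07), Bgn at −0.71 (SE 0.089, edgeR adjusted p 1.87e-05) and Podn at −0.47 (SE 0.093, edgeR adjusted p 0.000737). Dcn and Lum overlapped between both groups, with differences of −0.25 (95% interval −0.55 to 0.047) and 0.073 (interval −0.26 to 0.41). Scaling by total counts moved the median of all genes by 0.29 towards batch C, under which Dcn changed sign (0.040), Lum was called higher (0.37) and Podn was not called. Dcn was called lower in 5 of 16 alternatives, among them the length and GC correction (−0.94, adjusted p 2.61e-05 with limma-trend) and the fits without batch C old replicate 2 (−0.46) or batch A young replicate 1 (−0.32). The macrophage and leukocyte list was lower in batch C in 12 of 12 genes against either batch, and the part of this difference in the values of the 9 genes was not tested. Adipocyte and osteoblast markers were higher in batch C old, with summed CPM of 291 to 311 and 480.0 to 673, against 92.5 to 160.0 and 202 to 390.0 in the other libraries.

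**Figure D4:**
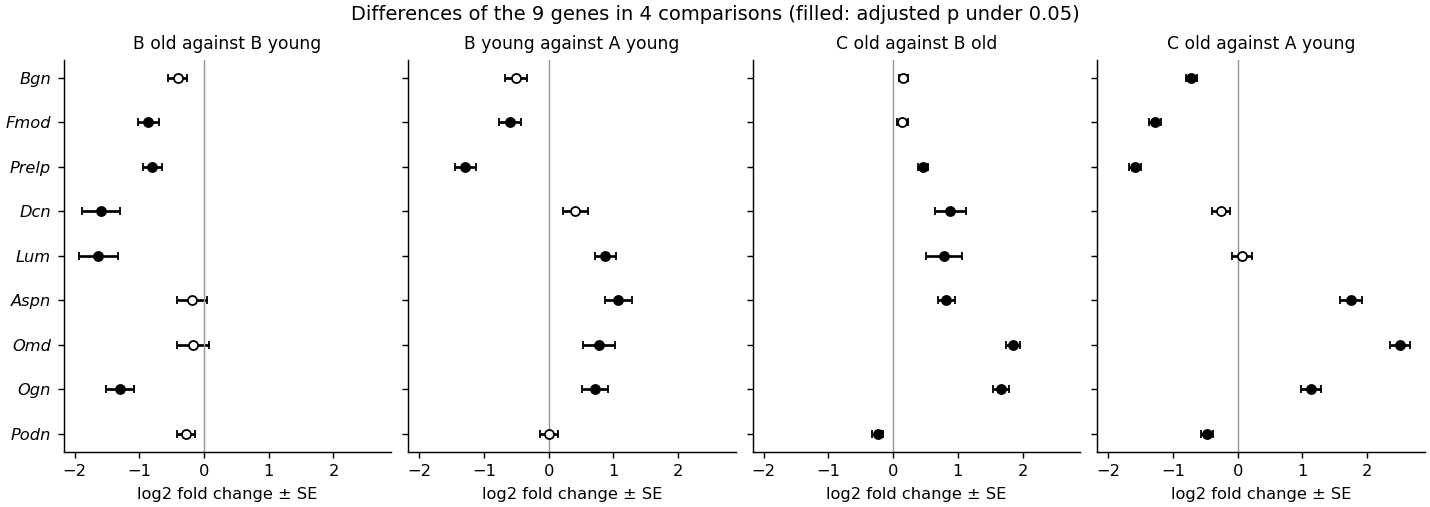
Points are log2 fold changes with SE for the 9 genes in each comparison, and filled points have an edgeR adjusted p-value under 0.05. Dcn, Lum and Ogn are called lower in old libraries of batch B, and in batch C old against batch A young Dcn is at −0.25 and Lum at 0.073, both not called, and Ogn is higher at 1.13. Fmod and Prelp are lower in both.

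Batches A and C share no library with batch B, and both old against young differences can be set side by side. Fmod and Prelp were called lower in both. At the same age, they were also called lower in batch B young than in batch A young libraries (−0.60 and −1.29). Dcn, Bgn and Podn had negative values in both differences but did not pass in both. Ogn had a log2 fold change of −1.30 within batch B and of 1.13 between batches C and A, and both values passed the threshold. Omd and Aspn did not pass within batch B and had the largest increases of the 9 genes between batches C and A. Without a batch term the fit of old against young over all libraries gave 0.36 for Ogn, 0.99 for Aspn and 1.67 for Omd, all opposite in sign to their values within batch B.

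Positions in the genome were examined next, because the family lies in gene clusters (assembly GRCm38). On chromosome 13, Ecm2, Aspn (49544443 to 49567565), Omd (49582462 to 49592822) and Ogn (49608046 to 49624501) follow each other on the plus strand with gaps of 11653, 14896 and 15223 bp. No other protein-coding gene lies between them, but all 4 lie within Cenpp on the opposite strand. Whether counting used strand is not given in the sources used here. Cenpp averaged 5.56 CPM over batch C old libraries, while its means in the other groups lay between 1.51 and 1.96 CPM. Cenpp was thus highest in the same group as Aspn, Omd, Ogn and Ecm2. Whether reads of Cenpp entered the counts of these 4 genes, or the reverse, was not tested. Ecm2, a related leucine-rich protein that was not among the 9 genes, averaged 5.66 ± 1.36 CPM over batch A young (SD, n = 4) and 14.3 ± 0.93 CPM over batch C old libraries (SD, n = 3). In batch B it was at 5.44 and 8.09 CPM in the young and 4.24 and 5.67 CPM in the old libraries.

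All 4 genes of this cluster were higher in batch C old than in batch B old libraries, Ecm2 among them (log2 fold change 1.53, SE 0.16, edgeR adjusted p 4.01e-06). Dcn, Lum and Prelp were called higher there too, as were 32.1% of all genes tested. For age within batch B all 4 log2 fold changes were below 0, and of these that of Ogn alone passed the threshold (Ecm2 −0.43, SE 0.26, edgeR adjusted p 0.447). The values of the remaining proteoglycan genes followed here were below 0 as well. Differences between the 4 genes were not tested. The root mean square difference of mean-centred log2 CPM over 11 libraries was 0.48 between Aspn and Omd, 0.52 between Aspn and Ogn and 0.68 between Omd and Ogn. Among 10187 genes ordered by this difference from Aspn, Omd had rank 411 and Ogn rank 697. In the order from Omd, Aspn had rank 73 and Ogn rank 490. From Ogn, Aspn had rank 844 and Omd rank 3707.

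On chromosome 10, Dcn (97479609 to 97518143) and Lum (97565128 to 97572703) lie 46984 bp apart on the plus strand and are followed by Kera and Epyc. The ratio of Lum to Dcn CPM stayed between 0.669 and 1.17 over the 11 libraries while Dcn varied 5.80-fold and Lum 5.96-fold. The root mean square difference between them was 0.23, which made Dcn the gene most like Lum and Lum the second most like Dcn among 10187 genes. Aldh1a1, a retinaldehyde dehydrogenase, was the gene most like Dcn (0.12). Epyc was at 0.569 to 2.23 CPM in batch A young and at no more than 0.476 CPM in the other libraries, and Kera did not exceed 0.544 CPM.

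Prelp (133910304 to 133921414, minus strand) and Fmod (134037254 to 134048277, plus strand) lie 115839 bp apart on chromosome 1, and Optc lies 2304 bp from Prelp. The log2 ratio of Fmod to Prelp CPM ranged from 1.29 to 2.25 over all libraries, and Optc reached no more than 2.59 CPM. The genes most like the remaining members by the same measure were Col1a2 for Fmod (0.15), Hcn2 for Prelp (0.23), Trappc9 for Bgn (0.057), Pttg1ip for Podn (0.080), Zfp781 for Aspn (0.14), Zfp57 for Omd (0.31) and Gprc5b for Ogn (0.23). Col1a2 encodes a chain of collagen I, the fibril that fibromodulin binds, but Zfp703 (0.16) and Grina (0.17) were almost as like Fmod. Bgn lies on chromosome X (73483602 to 73495933, plus strand). Podn lies on chromosome 4 (108014791 to 108096445, minus strand) and overlaps Scp2 on the same strand over 52607 bp, so that its reads are less certain. Scp2 was at 5.50 to 9.94 CPM on average per group, and Podn at 155 to 225 CPM.

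**Figure D5:**
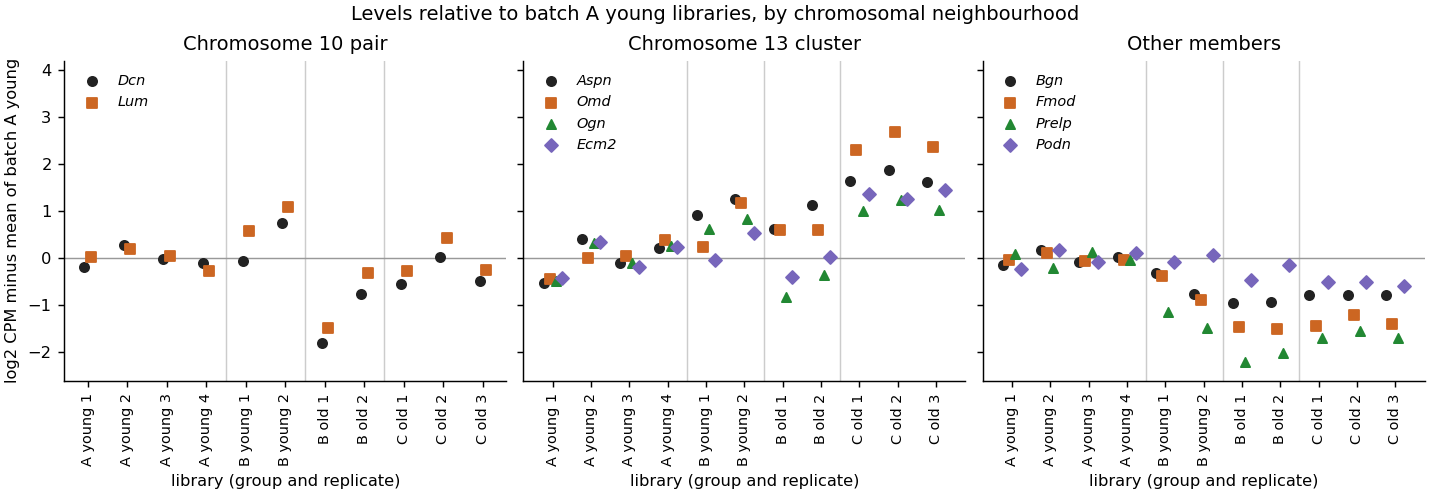
Points are log2 CPM in each library minus the mean of the batch A young libraries, for Dcn and Lum, for the chromosome 13 cluster and for the other genes. Dcn and Lum move side by side with their lowest values in batch B old replicate 1, the chromosome 13 genes are all raised in batch C old, and Prelp and Fmod are below the batch A level in every library of batches B and C.

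The promoters of Aspn, Omd and Ogn, which were all higher in batch C old libraries, and of Prelp and Fmod, which were called lower in both old against young differences, are shown for comparison. The sequences are the 250 bases before the start of the gene as given by RefSeq on GRCm38.p6, read 5′ to 3′ on the strand of the gene, and 7 of the 9 genes had an entry. Capitals mark matches to 5 motifs on either strand, and overlapping matches form a joined run. The TATA box was searched for as TATAAA. The CCAAT box was searched for by the letters of its name. The GC box was searched for as GGGCGG, the binding core of RUNX factors as TGTGGT, and the site of AP-1 as TGANTCA. The regions were chr13:49544193-49544442 for Aspn, chr13:49582212-49582461 for Omd, chr13:49607765-49608014 for Ogn, chr1:133921402-133921651 (minus strand) for Prelp and chr1:134037004-134037253 for Fmod.
Aspn: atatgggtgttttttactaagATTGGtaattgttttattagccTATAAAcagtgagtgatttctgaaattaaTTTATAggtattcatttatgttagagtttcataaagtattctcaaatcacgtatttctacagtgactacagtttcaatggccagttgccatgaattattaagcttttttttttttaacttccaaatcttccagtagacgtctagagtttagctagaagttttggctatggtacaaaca
Omd: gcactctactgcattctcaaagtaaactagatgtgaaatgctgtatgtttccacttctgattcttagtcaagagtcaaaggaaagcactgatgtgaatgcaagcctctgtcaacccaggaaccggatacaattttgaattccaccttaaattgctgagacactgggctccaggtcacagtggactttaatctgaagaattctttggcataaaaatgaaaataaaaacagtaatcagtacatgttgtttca
Ogn: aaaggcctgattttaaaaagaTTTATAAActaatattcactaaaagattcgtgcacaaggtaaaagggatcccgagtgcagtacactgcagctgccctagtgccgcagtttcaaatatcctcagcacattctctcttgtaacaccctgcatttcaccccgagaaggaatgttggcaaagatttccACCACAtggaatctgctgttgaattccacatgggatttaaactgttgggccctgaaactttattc
Prelp: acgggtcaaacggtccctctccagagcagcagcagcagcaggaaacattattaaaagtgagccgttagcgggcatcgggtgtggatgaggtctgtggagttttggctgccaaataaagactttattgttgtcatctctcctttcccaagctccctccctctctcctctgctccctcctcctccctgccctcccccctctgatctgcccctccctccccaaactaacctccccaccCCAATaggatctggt
Fmod: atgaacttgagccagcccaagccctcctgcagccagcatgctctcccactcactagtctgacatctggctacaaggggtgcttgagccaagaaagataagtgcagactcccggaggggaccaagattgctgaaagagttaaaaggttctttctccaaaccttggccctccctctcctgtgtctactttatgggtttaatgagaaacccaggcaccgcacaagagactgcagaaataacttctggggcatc

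These windows shared little. Aspn held TATAAA or its complement beginning 207 and 178 bases before the start and a CCAAT match at 229 bases. Ogn held overlapping TATAAA matches on both strands at 229 and 227 bases and a match to the RUNX core at 65 bases. The window of Ogn ends at 49608014, before the annotated gene start at 49608046. Unlike the other printed windows, the bases after its start did not read as an annotated transcript, so these distances are less certain. Prelp held a CCAAT match at 15 bases, and Omd and Fmod held no match to any of the 5 motifs. Of 32851 promoter windows of the same length, 12.4% held the TATA box, 33.8% the CCAAT box, 32.7% the GC box, 14.0% the RUNX core and 6.75% the AP-1 site. The windows of Aspn, Omd and Ogn were poor in G and C, at 30.0%, 38.4% and 42.0%, against a median of 52.4% over all windows, whereas Fmod was at 51.2% and Prelp at 55.6%. All 5 windows held fewer CpG dinucleotides than the median of 6, with 2 in Aspn, 1 in Omd, 4 in Ogn, 2 in Fmod and 5 in Prelp. The window of Ecm2, which is not printed because Ecm2 is not among the 9 genes, had 40.0% G and C, 3 CpG dinucleotides and a GC box match beginning 87 bases before the start. These are features of the letters only, and no binding was measured.

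Other genes of the family and of its pathway were counted from fixed lists. Of the other 9 family genes, those at 1 CPM or more on average were Tsku (49.0 CPM over all libraries), Podnl1 (12.4), Ecm2 (8.09) and Optc (1.20). For age within batch B, 0 of the 8 that could be tested passed the threshold in edgeR's test, with limma-trend or with DESeq2, and 1 was at an unadjusted p-value under 0.05 in edgeR's test (Podnl1, 0.44, SE 0.18). Of the 21 enzymes that build the linker and the chondroitin or dermatan sulfate chains, 2 were lower in old MSCs of batch B and 0 were higher. These were Xylt1, which attaches the first sugar to the core protein (−1.03, SE 0.19, edgeR adjusted p 0.00882), and the sulfotransferase Chst12 (−0.51, SE 0.11, edgeR adjusted p 0.0197). Neither passed without batch B old replicate 1 or without batch B young replicate 1. Without batch B young replicate 2 the count was 7 lower. Of the 7 keratan sulfate enzymes tested, 0 passed in edgeR's test, with limma-trend or with DESeq2, and 1 was at an unadjusted p-value under 0.05 in edgeR's test.

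Among 17 large and cell surface proteoglycans, Prg4 (lubricin, −1.11, SE 0.21, edgeR adjusted p 0.00932) and Tgfbr3 (betaglycan, −0.66, SE 0.15, edgeR adjusted p 0.0339) were lower in old MSCs of batch B and Spock2 was higher (1.32, SE 0.27, edgeR adjusted p 0.0177). Without batch B old replicate 1 none of these 3 calls held, and without batch B old replicate 2 or batch B young replicate 1 that of Spock2 alone did. Without batch B young replicate 2 the count was 5 lower and 1 higher. Prg4 was at 453 and 397 CPM in young and at 207 and 183 CPM in old libraries. Of 14 fibril-associated collagen genes 1 passed, Col11a2, at 26.5 and 5.31 CPM in young and 2.49 and 3.60 CPM in old libraries (−2.38, SE 0.48, edgeR adjusted p 0.0164). Of 18 signalling partners 1 passed, the growth factor receptor Met (−0.74, SE 0.16, edgeR adjusted p 0.021), a call lost without batch B old replicate 1 and without batch B young replicate 1. Without batch B young replicate 2 the count was 6 lower. The count for the collagens was 8 lower without batch B young replicate 2 and 0 lower without either old library or without batch B young replicate 1, the last of which gave 1 higher (Col6a3).

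Of 10 proteinases that can cut these proteoglycans, 2 were higher in old MSCs of batch B and 0 were lower. Mmp13 (collagenase 3) was at 455 and 598 CPM in young and at 1153 and 1200.4 CPM in old libraries of batch B (1.17, SE 0.15, edgeR adjusted p 0.000847). Mmp9 (gelatinase B) was at 0.211 and 0.272 CPM in young and at 9.21 and 3.00 CPM in old libraries (4.64, SE 0.59, edgeR adjusted p 0.000847). Both passed with each library of batch B left out in turn. In batch C old libraries Mmp13 was at 312 to 391 CPM and Mmp9 at 0.260 to 0.504 CPM, below both batch B old libraries. For Mmp13 these values were below both batch B young libraries as well. At the same age, Mmp13 also differed between batches. It was at 220 to 254 CPM in batch A young libraries and higher in batch B young (1.16, SE 0.14, edgeR adjusted p 0.000914).

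Between batches the related lists moved in both directions. From batch A to batch B in young MSCs, 7 chain enzymes were higher and 1 lower of 20 tested, led by Csgalnact2 (0.86, SE 0.15) and Csgalnact1 (0.71, SE 0.13). In the same comparison 5 collagen genes of 14 were lower, led by Col6a3 (−1.40, SE 0.21), as were 7 signalling partners of 18, led by Tgfb2 (−0.67, SE 0.12). Single libraries moved these counts. Without batch B young replicate 2, 3 chain enzymes were higher, 1 collagen gene was lower and 1 higher, and 2 signalling partners were lower. Without batch B young replicate 1, 6 chain enzymes were higher and 5 lower, 9 collagen genes were lower, and 8 signalling partners were lower and 1 higher. Without batch A young replicate 3, 3 chain enzymes were higher, 3 collagen genes lower and 4 signalling partners lower. Without batch A young replicates 2 or 4 in turn, 5 chain enzymes were higher and 3 collagen genes lower. From batch B to batch C in old MSCs, 13 of 21 chain enzymes were lower and 2 higher, and 7 of 10 proteinases were lower, led by Mmp13 (−1.79, SE 0.095). Scaling by total counts gave 6 lower and 4 higher chain enzymes and 5 lower and 2 higher proteinases there. Without single libraries 9 to 13 chain enzymes and 5 to 7 proteinases were lower. The shares of all genes called in these comparisons are given above.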

How the data were processed

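The authors deposited a table of raw read counts per gene and library. Builds mm10 and GRCm38 are named in the submitters' processing notes, and the aligner, the counter and the use of strand are not given in the sources used here. Libraries were grouped by the batch and age in their labels. Of 28222 Ensembl genes, 28179 were matched to GENCODE M21 (GRCm38).

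The deposited counts entered edgeR 4.0.16 (R 4.3.3), and each comparison used its two-sided quasi-likelihood test. The filterByExpr function set the genes tested (minimum count 5), libraries were scaled with TMM factors (0.887 to 1.17), and p-values were adjusted over all genes by the Benjamini-Hochberg method (threshold 0.05). The age model held all 11 libraries and a batch term, so that the age coefficient comes from batch B. The other comparisons used only their own libraries. Log2 CPM had a prior count of 2. A count of 3 equals 0.148 to 0.251 CPM. No pair of libraries of the same group agreed within sampling noise (chi-square per gene at least 3.07), and all 11 were counted as separate. Pairs across groups were not checked. The batch C old pairs were the closest, at 3.07 to 4.85, against 5.38 to 48.5 in the other groups. P-values that involve batch C rest on this narrow spread.

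All 9 genes are named in each comparison. Related lists give at most 4 genes past the threshold by p-value, and other family genes at 1 CPM or more on average. Markers, neighbours and overlapping genes are named beside them, which the rule did not cover. The 9 genes and the lists were chosen with earlier results of these data known. A single gene in each of 3 lists is not analysed here.

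Alternatives were limma-trend (limma 3.58.1), DESeq2 1.42.0, a minimum count of 10, no filter, RLE factors, total-count scaling, TMM factors without the collagen and proteoglycan genes, a length and GC correction (loess span 0.3), leaving out each library, a replicate block, no batch term, batch B alone and a fit of all 11 libraries. The tests were tried on simulated data.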

Additional observations from a re-analysis of the deposited data

Results flagged for a closer look

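Fmod was at 8276 CPM in batch A young replicate 2, further from the other 3 libraries of its group (7296 to 7414 CPM) than Dixon's test allows at the 95% level. This was the only flag among 10 measures tested, the 9 genes and their sum, all in batch A young. The other groups held too few libraries for this test. By chance about 1 in 20 such tests is flagged. The same library had the highest CPM of batch A for Bgn, Dcn, Lum, Aspn, Ogn and Podn and the lowest for Prelp. Without it, Fmod was still lower in batch B young than in batch A young, at −0.55 on the log2 scale, but did not pass the threshold (edgeR adjusted p 0.0648). The call was also lost without batch A young replicate 3, batch A young replicate 4 or batch B young replicate 2 (−0.62, −0.61 and −0.37). Between batch C old and batch A young libraries the call of Fmod held in all 7 fits that left out a library (−1.36 to −1.23).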

How the results depend on the processing

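For age within batch B, 360 genes and 5 of the 9 members passed. DESeq2 gave 640 genes, no filter 1094, no batch term 2641 and batch B alone 123 genes and 3 members. Without the batch term the signs of Aspn (0.99), Omd (1.67) and Ogn (0.36) were reversed. Leaving out each library gave 84 to 2007 genes and 0 to 6 members, and moved Aspn from −0.46 to 0.045 and Omd from −0.58 to 0.38. The lowest counts came without batch B old replicate 1 and the highest without batch B young replicate 2. The count of genes was 203 without batch B old replicate 2, 206 without batch B young replicate 1 and 578 without batch A young replicate 1.

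Between batches B and A in young MSCs, 2686 genes and 6 members passed. Leaving out each library gave 511 to 4031 genes and 1 to 8 members, lowest without batch B young replicate 2 and highest without batch B young replicate 1. Without batch A young replicate 3, 1293 genes and 3 members passed, and without batch A young replicate 4, 1726 genes. Leaving out each library moved Dcn from −0.050 to 0.76 and Podn from −0.083 to 0.081. The length and GC correction left 2 members and gave −0.017 for Dcn. The fit of all 11 libraries gave 4171 genes. Podn, at 0.0012, was −0.0061 with DESeq2, −0.0062 with RLE factors, −0.00053 with a minimum count of 10, −0.0033 without a filter and −0.021 in the fit of all 11 libraries.

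Between batches C and B in old MSCs (10133 genes and 7 members, or 9047 to 9624 and 5 to 6 without single libraries) no sign of a member was reversed in the alternatives run. Between batch C old and batch A young libraries 8550 to 9764 genes and 7 to 8 members passed without single libraries. There Dcn was 0.040 on total counts and was called lower in 5 of 16 alternatives (to −0.94 after the length and GC correction, adjusted p 2.61e-05), and Lum was −0.33 after the length and GC correction and −0.21 to 0.18 without single libraries.

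Scaling by total counts gave a mean summed level of 16752.5 CPM in batch A young and 12039.8 CPM in batch C old libraries, against 18527 and 10367 CPM, and TMM factors computed without the collagen and proteoglycan genes moved no group's level by more than its SD. It moved the share of higher genes among those called from 31.1% to 44.8% for age, from 51.9% to 66.4% for batch B against A, from 49.6% to 62.9% for batch C against B and from 50.1% to 72.5% for batch C old against batch A young. The cause of the changes in this section was not tested.

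Libraries with the same replicate number were not alike, as their deviations from the group mean correlated at −0.11 to 0.13. Within batch B both numbers give the same value by construction (0.036). Whether libraries were collected or processed in pairs therefore cannot be told from these correlations. With the replicate number as a block, batch B against A gave 729 genes and 3 members, Lum between batch C old and batch A young libraries was −0.060, and no other count of members or genes moved by over 1.5 times. Counts for the related lists under other scalings, other tools and without single libraries were added after seeing the data. Depth limits only the rarest genes named, such as Kera, Epyc, Col9a1 and Mmp9, which lay near 3 counts in some libraries.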
